A study of Mus musculus with 19 samples.

Results

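Cldn5 and Egfl7, a pair of genes of the endothelium, were followed across cell populations sorted from mouse skin squamous cell carcinoma. They were chosen by name from the authors' deposited table of log2 RNA ratios, which holds 1609 genes and gives all 6 ratios for both. The choice was made with those ratios known, so the ratios below describe the 2 genes and carry no test. The same choice named accessible chromatin peaks and Smad2/3 sites within 10 kb as readouts. As reported below, neither gene has either one at that distance, so the ratios alone define the pair.

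Claudin-5, the product of Cldn5, is a membrane protein of tight junctions, and in endothelium it seals the cleft between neighbouring cells against small solutes. EGFL7 is a protein secreted by endothelial cells into the matrix around them, where it takes part in vessel tube formation and can bind Notch receptors. An intron of Egfl7 carries the precursor of miR-126, a microRNA abundant in endothelium that represses inhibitors of VEGF signalling. In skin, blood and lymphatic vessels run in the dermis and in tumour stroma and not in the epithelium from which these carcinomas arise.

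The RNA came from allograft tumours grown in skin from 10000 injected cells on the C57BL/6 strain, per the labels. Cells were sorted by the surface level of CD71, the transferrin receptor, and by retention of the histone label H2BGFP. Double negative cells were low for CD71 and low for H2BGFP (CD71lo H2BGFPlo), quiescent cells were low for CD71 and high for H2BGFP (CD71lo H2BGFPhi), and proliferative cells were high for CD71 and low for H2BGFP (CD71hi H2BGFPlo). Each population was sequenced once from each of 2 tumours, SCC1 and SCC2, giving 6 RNA libraries among the 19 samples. No treatment is labelled for these libraries, and neither the promoter that drives H2BGFP nor any gate separating tumour cells from host cells is given by the labels. The labels describe the RNA as that of sorted carcinoma cells, and the vessels of an allograft are those of its host. The accessibility data were ATAC-seq of 10 libraries, those 3 populations and a CD71hi H2BGFPhi one in both tumours and 2 libraries of a Tgfbr2 knockout tumour (SCC3), merged by the authors into 1 list of peaks. Smad2/3 ChIP-seq was done on cultured SCC1 cells given 5 ng/mL TGFβ1 for 1 h, and input DNA of cultured SCC1 and SCC2 cells under the same treatment served for copy number.

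In the GRCm38.p6 assembly, Cldn5 (gene ID 12741) occupies chr16:18776847-18778262 on the plus strand. It spans 1.42 kb, with 1 annotated start site. Egfl7 (gene ID 353156) occupies chr2:26581083-26592682 on the plus strand, spans 11.6 kb and has 3 annotated start sites. The 250 bases before the Cldn5 start and before the first and second Egfl7 starts are shown, from RefSeq on GRCm38.p6 and 5′ to 3′ on the plus strand, because they differ in a motif of the ETS factors that are active in endothelium and because no accessible peak was listed over any of them. Capitals mark GGAAGT or its reverse complement ACTTCC. The Cldn5 stretch lies at chr16:18776597-18776846, the first Egfl7 stretch at chr2:26580833-26581082 and the second at chr2:26583615-26583864.
Cldn5 promoter: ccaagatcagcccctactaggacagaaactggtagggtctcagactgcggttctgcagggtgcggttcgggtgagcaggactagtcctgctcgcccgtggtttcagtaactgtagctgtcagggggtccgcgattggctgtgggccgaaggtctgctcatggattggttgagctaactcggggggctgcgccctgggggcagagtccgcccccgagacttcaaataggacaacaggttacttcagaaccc
Egfl7 promoter 1: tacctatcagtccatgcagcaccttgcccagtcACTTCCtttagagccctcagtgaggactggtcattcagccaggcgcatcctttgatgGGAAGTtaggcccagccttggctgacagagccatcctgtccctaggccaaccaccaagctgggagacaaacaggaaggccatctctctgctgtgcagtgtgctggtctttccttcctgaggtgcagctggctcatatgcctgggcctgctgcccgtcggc
Egfl7 promoter 2: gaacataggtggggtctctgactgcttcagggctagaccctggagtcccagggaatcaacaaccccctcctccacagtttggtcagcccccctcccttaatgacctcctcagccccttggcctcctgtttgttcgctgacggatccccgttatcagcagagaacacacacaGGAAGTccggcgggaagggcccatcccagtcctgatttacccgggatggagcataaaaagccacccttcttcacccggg

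The ETS letters occurred at 2 places before the first Egfl7 start, 217 to 212 bases upstream on the minus strand and 160 to 155 bases upstream on the plus strand. Before the second start they occurred once, 79 to 74 bases upstream on the plus strand. They occurred nowhere before the last Egfl7 start or the Cldn5 start. Among 32851 RefSeq promoter stretches of the same length, 19.7% hold GGAAGT on either strand, so a match is common. AACAAT (SOX factors, in 9.42% of the stretches), GTAAACA (forkhead factors, 3.17%) and CAGACA (SMAD factors, 17.1%) were searched on both strands and matched none of the 4 stretches. No match of 1 motif overlaps that of another. The G and C content was 59.6% before the Cldn5 start and 58.0%, 58.4% and 63.2% before the Egfl7 starts, against a median of 52.4% over all stretches.

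The microRNA precursor Mir126a lies inside Egfl7 at chr2:26591357-26591429, and its 3p arm is the mature miR-126 of endothelium. It is printed with its seed, bases 2 to 8, in capitals. No ratio for Mir126a is in the table, so its RNA was not analysed here.
miR-126a-3p: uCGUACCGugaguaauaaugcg

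The first comparison set double negative cells, low for both sort markers, against proliferative cells of the same tumour. Both genes had more RNA in the double negative cells, in either tumour. Cldn5 had a log2 ratio of 6.84 (SCC1) and 4.53 (SCC2) in the authors' deposited table, which is 114-fold and 23.0-fold more RNA in double negative cells. Only 3 of 1567 genes in SCC1 and 13 in SCC2 had a higher ratio, counted over the genes with every ratio under 11.9 in size, since 12 is repeated in the table for many genes. Egfl7 had smaller ratios of 3.34 and 1.63 in the authors' deposited table, or 10.1-fold and 3.09-fold, with 26 genes above it in SCC1 and 211 in SCC2. A gene is called here when its ratio has the same sign and a size of at least 1 in both tumours. Both genes were called higher, as were 15.5% of all genes in the table, while 25.2% were called lower. The call was used by the choice of the genes and is given as a description.

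In bulk RNA of sorted cells, more cells of a type and more RNA per cell cannot be told apart, and this holds for every ratio here. The table gives no expression level, read count or error, so the depth behind a ratio is unknown, and there is no replicate within a tumour. The 2 tumours are the only repeat, and the labels do not say how many animals each stands for. The submitters' processing notes name the build mm9 besides mm10 for the double negative libraries only, in both tumours. Population and processing therefore cannot be separated in any ratio that includes double negative cells. Whether processing changed those ratios was not tested.

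The second comparison, quiescent against proliferative cells, split the tumours by sign, with no error given for any ratio. Cldn5 had a log2 ratio of -0.83 (SCC1) and 2.75 (SCC2) in the authors' deposited table. Its RNA in quiescent cells was thus 0.564 times that of proliferative cells in SCC1 and 6.75 times in SCC2. Egfl7 had ratios of -0.61 and 0.88 in the authors' deposited table. The 2 genes therefore shared the sign within each tumour, negative in SCC1 and positive in SCC2. The SCC1 values lay towards the middle of the table, where the median over all genes was -0.61. Among the 1567 ranked genes in SCC1, 904 stood above Cldn5 and 662 below it. For Egfl7 these counts were 782 and 784. In SCC2, 156 genes stood above Cldn5 and 508 above Egfl7. Neither of the 2 genes was called, against 11.3% of genes called higher and 23.3% called lower. The ratios of SCC2 exceeded those of SCC1 by 3.58 for Cldn5 and 1.49 for Egfl7 on the log2 scale, a difference that was not tested.

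**Figure D1:**
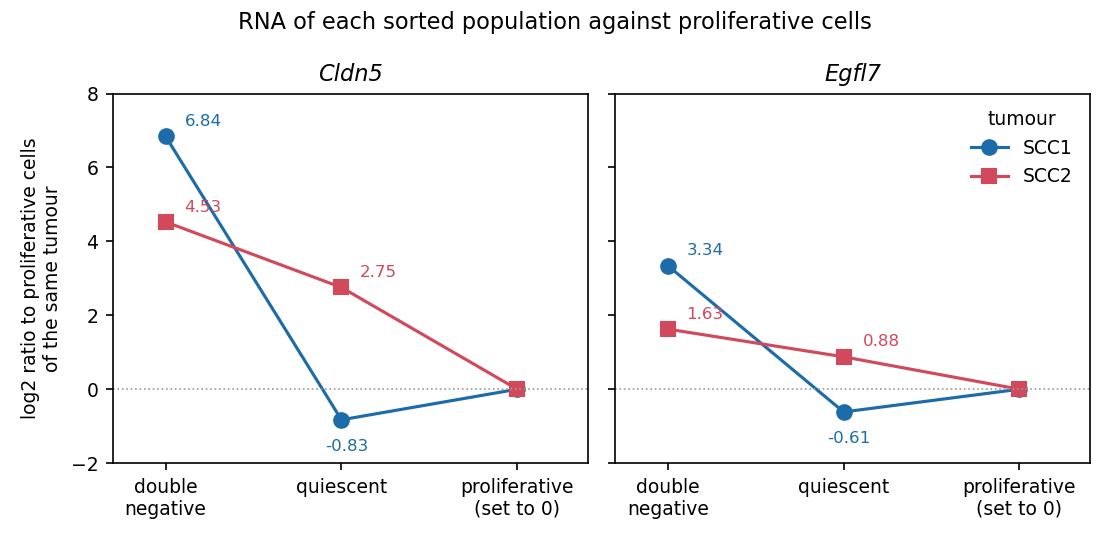
The log2 RNA ratio of double negative and quiescent cells to proliferative cells of the same tumour for Cldn5 (left) and Egfl7 (right), with 1 point per population and tumour, proliferative cells set to 0 and lines joining the points of a tumour. Double negative cells are highest in both tumours (6.84 and 4.53 for Cldn5, 3.34 and 1.63 for Egfl7), while quiescent cells lie below proliferative cells in SCC1 and above them in SCC2.

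The third comparison, quiescent against double negative cells, reuses the same libraries. Cldn5 had a log2 ratio of -7.70 (SCC1) and -1.81 (SCC2) in the authors' deposited table, so quiescent cells held 208-fold and 3.52-fold less of its RNA. Only 1 gene in SCC1 and 28 in SCC2 had a lower ratio. Egfl7 had ratios of -4.00 and -0.79 in the authors' deposited table, or 16.0-fold and 1.73-fold less RNA in quiescent cells. Cldn5 was called lower, as were 2.3% of all genes (1.31% were called higher), and Egfl7 was not, because of its value in SCC2. The values of this comparison follow from the other 2: over 1567 genes the quiescent against proliferative ratio minus the other 2 came to 0.039 in the median gene of SCC1 (range -0.035 to 0.083) and to 0.027 in that of SCC2 (range 0.0041 to 0.054). The 6 ratios of a gene thus hold 4 free values.

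The order of the populations was the same for both genes within a tumour. In SCC1 it was double negative, then proliferative, then quiescent, and in SCC2 it was double negative, then quiescent, then proliferative. The closest neighbours in that order were quiescent and proliferative cells in SCC1 and quiescent and double negative cells in SCC2, with the ratios given above. No error is given with which to say whether such neighbours differ. The Cldn5 ratio exceeded the Egfl7 ratio by 3.49 in SCC1 and 2.90 in SCC2 for double negative against proliferative cells. In quiescent against proliferative cells the difference of the Cldn5 and Egfl7 ratios was -0.21 in SCC1 and 1.88 in SCC2. These are differences between ratios, and the expression levels of the 2 genes cannot be compared from the table.

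Across the 1609 genes, 16 (0.994%) were called higher in double negative cells than in both other populations. Cldn5 was among them and Egfl7 was not. The 16 genes were Cldn5, Lyve1, Mmrn1, Angpt2, Ccl21a,Gm1987, Gm1987, Tbx1, Ace, Emid1, Glrb, Grem1, Hp, Megf10, Ogn, Mir25 and Nts. Lyve1 (a hyaluronan receptor of lymphatic endothelium), Mmrn1 (multimerin-1, of platelets and endothelium), Ccl21a (a chemokine released by lymphatic endothelium) and Angpt2 (a ligand of the endothelial receptor Tie2) are vessel genes by their known roles. Ace encodes the angiotensin-converting enzyme of endothelial surfaces, and Grem1 and Ogn are known from fibroblasts and matrix.

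**Figure D2:**
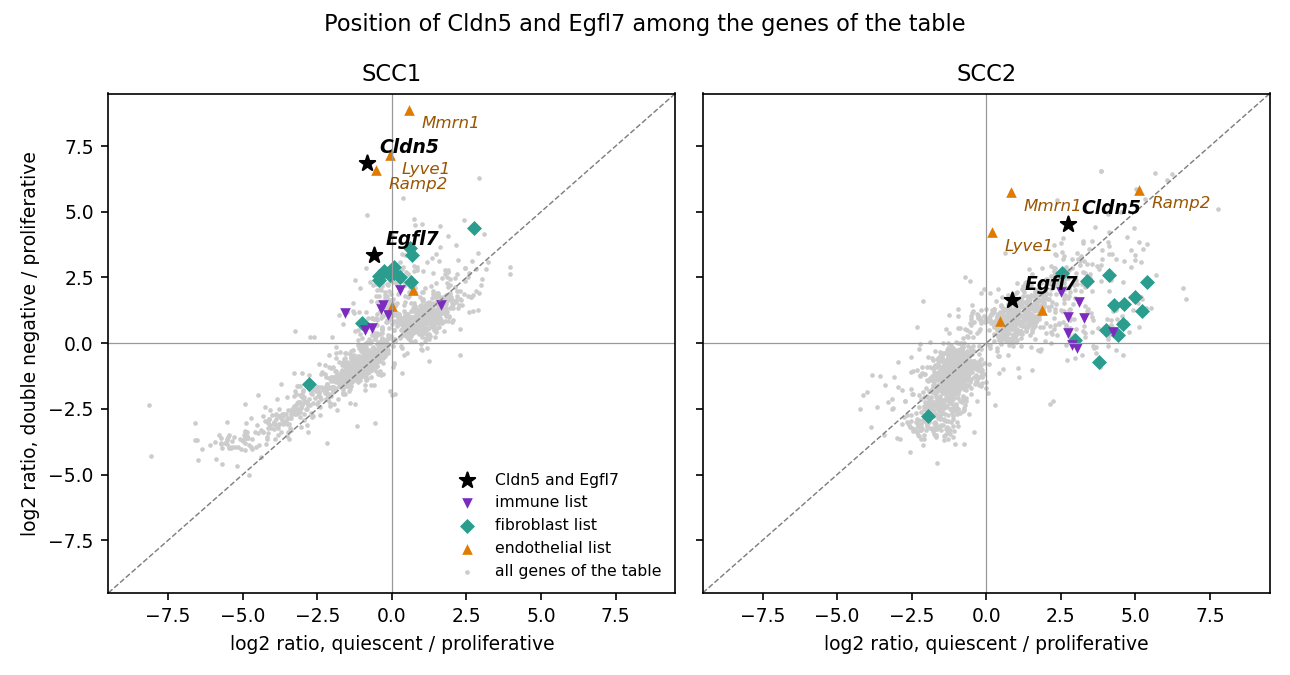
Log2 ratio of double negative to proliferative cells (vertical) against that of quiescent to proliferative cells (horizontal) in SCC1 (left) and SCC2 (right). Each point is a gene of the table, ratios near 12 in size fall outside the axes, and on the dashed line the 2 ratios are equal. Both axes share the proliferative libraries. Cldn5 and Egfl7 lie above the line in both tumours, with Mmrn1, Lyve1 and Ramp2, and the fibroblast and immune lists lie mostly above it in SCC1 and below it in SCC2.

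Of a list of 50 endothelial genes, 7 are in the table, Cldn5 and Egfl7 among them. By its name the table holds differentially expressed genes, so a gene had to differ to be listed, and counts over listed genes are a description. Pecam1, Cdh5, Kdr, Flt1, Tek and Tie1, which define endothelium best, are not among the 7, so their ratios were not analysed here and the endothelial label of the pair rests on the known roles of the genes. All 7 had a positive ratio of double negative to proliferative cells in both tumours, as had 685 of all 1609 genes. Of the 7, 6 were called higher and none lower, beside 15.5% and 25.2% of all genes. Cldn5 and Egfl7 were chosen with these ratios known, so their part in the counts restates that choice. Apart from them, Mmrn1, Lyve1, Ramp2 and Eng were called higher and Apln was not. The list's median ratio was 6.57 in SCC1 and 4.24 in SCC2, beside -0.35 and -0.34 over all genes. Mmrn1 had ratios of 8.89 and 5.75 in the authors' deposited table. Lyve1 had 7.15 and 4.24, and Ramp2, a partner of the adrenomedullin receptor needed in vessels, had 6.57 and 5.84 in the authors' deposited table. Eng, an endothelial co-receptor for TGF-β family ligands, had 2.01 and 1.26 in the authors' deposited table. Apln, a peptide hormone made by sprouting endothelial tip cells, had 1.41 and 0.84 and was the 1 member not called. In both tumours Cldn5 stood in place 3 and Egfl7 in place 5 of the 7.

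In quiescent against proliferative cells none of the 7 was called in either direction, and the median was -0.08 in SCC1 and 0.88 in SCC2, beside -0.61 and -0.49 over all genes. Cldn5 and Ramp2 differed most between tumours, with Ramp2 at -0.53 (SCC1) and 5.11 (SCC2) in the authors' deposited table. Lyve1 had -0.08 and 0.19, and Mmrn1 had 0.57 and 0.84, in the authors' deposited table. The Mmrn1 ratio in SCC2 was close in size to that of Egfl7 (0.88). No error is given with which to set either one apart from 0. Eng had ratios of 0.72 and 1.88, and Apln of 0.01 and 0.46, in the authors' deposited table. In SCC2, 3 of the 7 (Cldn5, Ramp2 and Eng) had a ratio of at least 1, and in SCC1 none did. The share of all genes at that size in 1 tumour was not computed, so this count is a description. In SCC2, 508 of the 1567 ranked genes stood above Egfl7 at 0.88, so at most that many of them reached 1. Higher ratios in SCC2 were not particular to endothelial genes. The 8 immune markers of the table had medians of -0.34 (SCC1) and 2.95 (SCC2) in this comparison, and the lowest of them in SCC2 was 2.49. In quiescent against double negative cells 3 of the 7 (Cldn5, Mmrn1 and Lyve1) were called lower, beside 2.3% of all genes, and the median was -7.14 in SCC1 and -0.79 in SCC2, beside -0.23 and 0.13 over all genes. Eng was the 1 member with opposite signs there, at -1.32 and 0.58 in the authors' deposited table.

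Markers of other cell types are also in the table. For double negative against proliferative cells, their counts stand beside 15.5% of all genes called higher and 25.2% called lower, and their medians beside -0.35 in SCC1 and -0.34 in SCC2 over all genes. Of 25 fibroblast markers 14 are in the table, and 7 were called higher and 1 lower in double negative cells when set against proliferative ones, with medians 2.62 (SCC1) and 1.34 (SCC2). In quiescent against double negative cells, 13 of the 14 had opposite signs in the 2 tumours, with medians -2.68 (SCC1) and 3.07 (SCC2). Of all 1609 genes, 863 had opposite signs or a ratio of 0 in that comparison, with medians of -0.23 and 0.13. Thy1, a surface protein of fibroblasts, had -3.03 and 3.04 in the authors' deposited table, and Dcn, a matrix proteoglycan, had -1.68 and -0.13. Cldn5 and Egfl7 were negative in both tumours in that comparison, as were 483 of all 1609 genes. Of 30 immune markers 8 are in the table, and 1 was called higher in double negative cells, a share near that of all genes, with medians of 1.24 and 0.68. Their medians in quiescent against double negative cells were -1.59 in SCC1 and 2.30 in SCC2. H2-Ab1, an antigen-presenting class II chain, had 1.46 and 1.95 for double negative against proliferative cells in the authors' deposited table, and Lyz2, the lysozyme of myeloid cells, had 1.16 and -0.07. Of 25 keratinocyte markers 4 are in the table, none called, with medians of -1.21 and 0.19 for double negative against proliferative cells. No mural cell gene of 15 and no red cell gene of 11 is in the table. The part of these cell types in the ratios of Cldn5 and Egfl7 was not tested.

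Among 36 ligands and receptors of vessel growth, 10 are in the table, Egfl7 included, and 6 were called higher and none lower in the double negative to proliferative ratio, beside 15.5% and 25.2% of all genes. The medians were 1.23 (SCC1) and 1.91 (SCC2), beside -0.35 and -0.34 over all genes. Angpt2 had ratios of 3.36 and 1.22 in the authors' deposited table. Pdgfc, a growth factor for mesenchymal cells, had 1.22 and 3.88, and Ctgf, a matrix protein induced by TGF-β, had 4.17 and 2.64 in the authors' deposited table. Nrp2, a co-receptor for VEGF-C and semaphorins, had -0.20 and -0.86 in the authors' deposited table. Of 33 Notch pathway genes 4 are in the table, 1 of them Egfl7 itself. Nrarp, a Notch target that dampens the pathway, was called lower at -1.45 and -1.67 in the authors' deposited table, and Hes6 and Dtx3 were not called. Of 34 tight junction and claudin genes only Cldn5 and Cgnl1 are in the table. Cgnl1, a paracingulin of junction plaques, had ratios of -0.97 and -0.33 for double negative against proliferative cells in the authors' deposited table, so it and Cldn5 stood on opposite sides of 0.

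Likeness was measured as the Euclidean distance between genes over the 6 ratios, which come from 6 libraries and share them. The 5 genes nearest to Cldn5 were Ccl21a,Gm1987 (distance 2.67), Ramp2 (2.97), Lyve1 (3.55), Gm1987 (3.74) and Lrg1 (3.84). Ccl21a and Gm1987 are near-identical copies of a chemokine gene, so the reads may be split between them and their entries are uncertain and not separate. Lrg1, a secreted glycoprotein, had ratios of 5.50 and 5.01 for double negative against proliferative cells in the authors' deposited table. The 5 genes nearest to Egfl7 were Clu (1.90), Angpt2 (2.22), Sema3a (2.23), Rhoj (2.24) and Aebp1 (2.43). Rhoj, a small GTPase of endothelium, had ratios of 4.51 and 1.40 for double negative against proliferative cells in the authors' deposited table, and Sema3a, a secreted guidance cue, had 2.31 and 0.77.

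Egfl7 stood 11th in distance from Cldn5 (6.24), and Cldn5 stood 783rd from Egfl7. By shape alone the pair was close: Pearson's r between them over the 6 ratios was 0.995. By that measure Cldn5 was the gene nearest to Egfl7, and Egfl7 was the second nearest to Cldn5, after Apln. The 6 points share libraries and hold 4 free values, so r is a description.

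**Figure D3:**
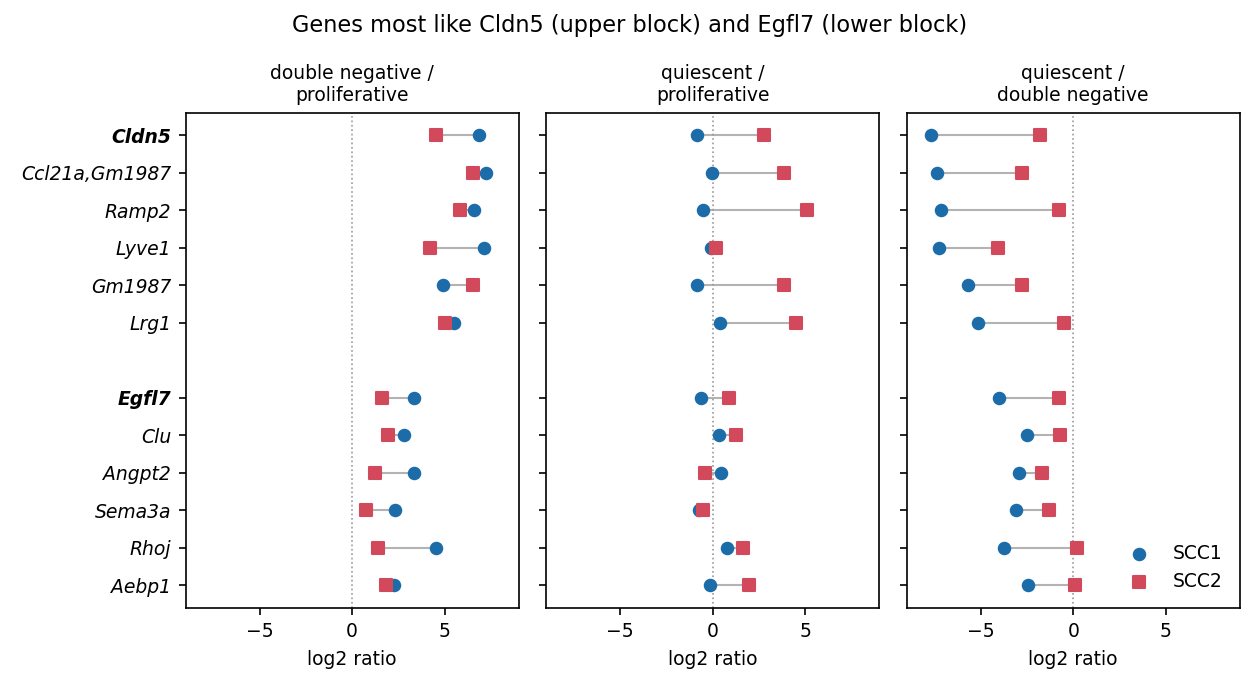
Log2 ratios in SCC1 (circles) and SCC2 (squares) of Cldn5 with its 5 nearest genes (upper block) and Egfl7 with its 5 nearest genes (lower block), for double negative against proliferative, quiescent against proliferative and quiescent against double negative cells. A grey line joins the 2 tumours of a gene. All 12 entries lie right of 0 in both tumours in the left panel, and Cldn5, Ramp2, Lyve1 and the Ccl21a entries lie between -7.70 and -5.69 in SCC1 in the right panel.

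Accessible chromatin was then set beside the RNA ratios, with a window of the gene body and 10 kb either side. The merged list of 61553 ATAC peaks has no peak within 10 kb of Cldn5 and none within 10 kb of Egfl7. In the same window, 93.9% of the 1600 genes of the table placed on the assembly had at least 1 peak. Of the 6143 Smad2/3 sites, which by the file's name are bound regions with a motif, none lay within 10 kb of either gene, beside 21.4% of the genes of the table with at least 1. The list names no library for a peak, so it cannot be said in which population a peak was found. Nor is the threshold for a peak given, so no peak means only that none was listed.

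The peak nearest to Cldn5, at chr16:18788951-18789550, lay 10.7 kb beyond its end and inside Cdc45. Further peaks lay 16.9 kb and 33.1 kb downstream and 42.8 kb upstream. The peak at 33.1 kb, chr16:18811351-18812550, covers the starts of Cdc45 and Ufd1 and holds the 1 Smad2/3 site within 50 kb of Cldn5, at chr16:18811461-18811661. Around Egfl7, 3 peaks lay 37.0 kb and 48.8 kb upstream and 47.4 kb downstream, the last one over Snhg7. The 3 Smad2/3 sites within 50 kb of Egfl7 were all upstream, at 24.1, 47.7 and 48.9 kb, and only the farthest overlapped a peak.

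**Figure D4:**
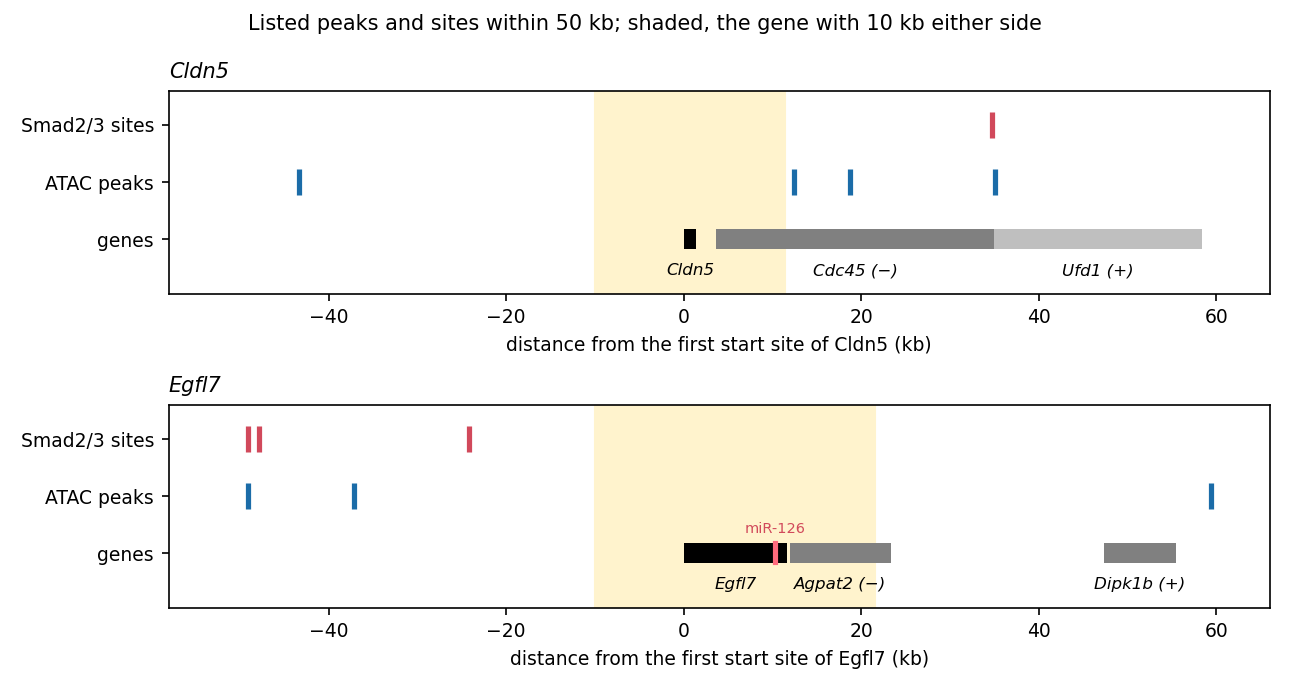
Merged ATAC peaks (blue) and Smad2/3 sites (red) within 50 kb of Cldn5 (top) and Egfl7 (bottom), by distance in kb from the gene's first start site, with protein-coding neighbours in grey and miR-126 marked in Egfl7. The shaded window of the gene with 10 kb either side holds no peak and no site for either gene, and the nearest peak is 10.7 kb beyond the end of Cldn5.

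The 1 neighbour of Cldn5 in the table is Cdc45, a subunit of the replicative helicase, which runs on the minus strand and ends 2.19 kb from it. It had ratios of -1.61 and -2.10 for double negative against proliferative cells and -2.85 and -1.17 for quiescent against proliferative cells in the authors' deposited table, so it stood on the other side of 0 from Cldn5 in the first of these. Quiescent against double negative cells gave -1.28 and 0.91 for Cdc45 in the authors' deposited table. No other gene of the table lies within 50 kb of Cldn5, and none lies within 50 kb of Egfl7.

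Of the 50 endothelial genes, 38 (76.0%) had a peak within 10 kb, beside 72.1% of protein-coding genes, so the lack of a peak near Cldn5 and Egfl7 is shared by 10 others of the list. In the table, Eng had 2 peaks and 4 Smad2/3 sites, Ramp2 had 1 of each, Mmrn1 and Lyve1 had 2 peaks, and Apln had 1 peak. Promoters were taken as 250 bases before to 50 bases after an annotated start. Of the 50 endothelial genes, 28 had a promoter in the RefSeq reference used. Among these 28, 0 had a promoter in a peak, Cldn5 and Egfl7 included with all 4 of their starts. Genes without a promoter in that reference, such as Pecam1, Cdh5, Ramp2 and Lyve1, were not counted, here or in the other sets. A promoter lay in a peak for 0 of 10 mural cell genes and 3 of 15 fibroblast genes (20.0%). It did for 3 of 9 keratinocyte genes (33.3%) and 10 of 19 immune genes (52.6%). Of the genes called higher in double negative cells against proliferative ones, 86 of 173 (49.7%) had a promoter in a peak. Of those called lower, 280 of 319 (87.8%) did, as did 963 of 1226 genes (78.5%) of the table. Smad2/3 sites were within 10 kb of 7 of 50 endothelial genes (14.0%), beside 15.4% of protein-coding genes and 21 of 25 keratinocyte genes (84.0%).

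**Figure D5:**
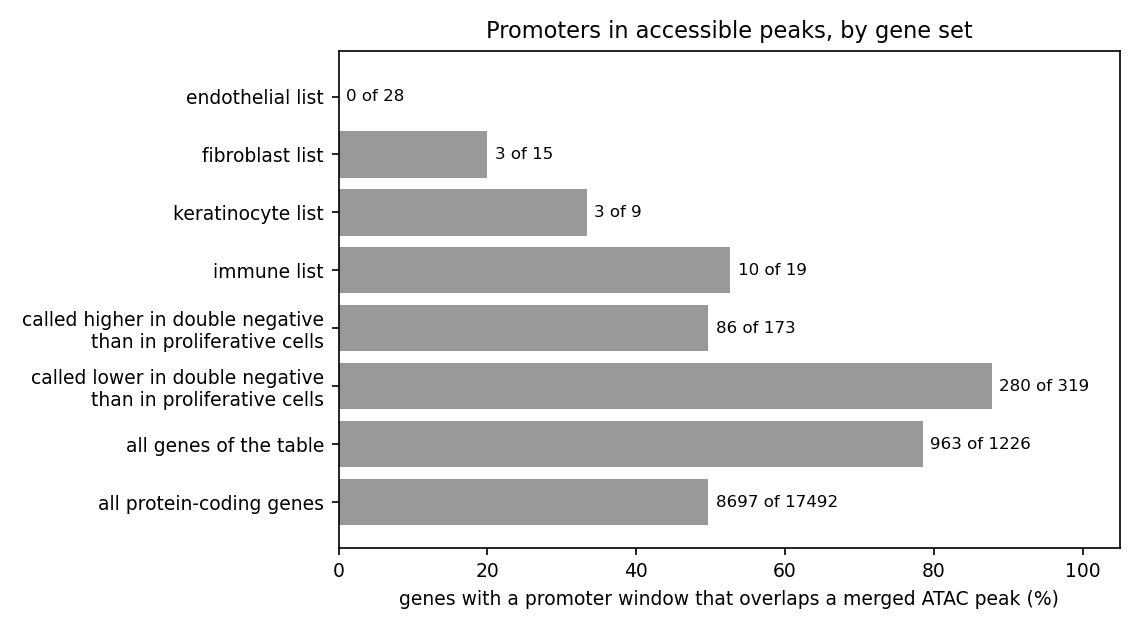
Share of genes whose promoter window (250 bases before to 50 after a start) overlaps a merged ATAC peak, with the counts beside each bar, by gene set. Shares are in percent of the genes with a promoter in the RefSeq reference used, which for the endothelial list is 28 of 50. No endothelial gene of 28 has a promoter in a peak, beside 963 of 1226 genes of the table and 8697 of 17492 protein-coding genes.

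Copy number was called by the authors on input DNA of cultured tumour cells, which the choice of the genes did not use. Cldn5 lay in a gain of 3 copies in both tumours, at chr16:17300001-22400000 in SCC1 and chr16:13500001-20800000 in SCC2, with rank sum p-values of 3.92e-12 and 1.93e-25 in the authors' deposited table. Egfl7 lay in a gain of 3 copies in SCC2, at chr2:24100001-26600000 with rank sum p = 8.11e-05 in the authors' deposited table, and in no listed region in SCC1. The gene ends at 26592682, close to the end of that region. Gains covered 45.1% of the genes of the table in SCC1 and 43.9% in SCC2, so a gain over Cldn5 or Egfl7 is near the background. Cdc45 lies in the same regions as Cldn5. Any part of copy number in the RNA ratios was not tested. The populations of a tumour were not separated in the input DNA.

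The authors' list of expressed mutations holds nonsynonymous ones by its name, so other mutations were not looked at. It has 422 and 95 rows for the quiescent libraries of SCC1 and SCC2 and 498 and 411 for the proliferative ones. Each row has a depth of at least 10 reads. None of the rows falls in Cldn5, in Egfl7 or in any other of the 50 endothelial genes. The double negative libraries, where the pair's RNA was highest, are not in that list. The reads over the 2 genes in the other libraries are not given, so whether a mutation in these genes could have been detected is unknown.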

How the data were processed

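RNA ratios, merged ATAC peaks, Smad2/3 sites, copy number and expressed mutations were read from the deposited files. The submitters' processing notes name TopHat2 2.0.9, Cufflinks 2.2.0, Cuffdiff 2.2.0 and build mm10 for RNA, and for double negative cells mm9 as well. RNA values are log2 ratios as the authors deposited them. Not given in the sources used here are the scaling of libraries, the rule for entry into the table and the callers of peaks, copy number and mutations. ChIP and input libraries were processed with Bowtie and Picard 1.88, and ATAC libraries with Bowtie, all with mm10, per the submitters' processing notes. Peaks and sites are positions without a score. The authors deposited a whole number of copies and a p-value per copy number region, and for each mutation a read count (depth) and a percent of reads with the alternative base, the last of which was not used.

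Each tumour's ratio was taken as deposited, with no test, because there is 1 library per population and tumour and no read count. Genes with a ratio of 11.9 or more in size (42 of 1609) were left out of ranks and likeness: 40 hold a ratio of exactly 12 in size, which gives no fold, and 2 hold a larger one. Coordinates, promoters and microRNAs came from RefSeq tables of GRCm38.p6, the assembly mm10 names: 1600 genes matched, 1492 by symbol and 108 by synonym, as did both Cldn5 and Egfl7. An overlap was at least 1 bp. Named genes are the pair, genes of the table within 50 kb, the 5 most like each, endothelial genes of the table and, of each other list, the 2 genes with the highest and the 2 with the lowest mean quiescent against proliferative ratio, of which some are printed. The genes and all lists were chosen with earlier results of these data known. Python 3.11.15 was used with pandas 2.3.3, numpy 2.4.6 and matplotlib 3.10.9, and the steps were tested on simulated data. Alternatives were each tumour alone, other minimum sizes, other windows and other measures of likeness.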

Additional observations from a re-analysis of the deposited data

Results flagged for a closer look

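The ratios below had opposite signs in the 2 tumours, and the difference between tumours was not tested. In quiescent against proliferative cells the SCC2 log2 ratio minus the SCC1 ratio was 3.58 for Cldn5, 1.49 for Egfl7, 5.63 for Ramp2 and 0.27 for Lyve1, whose own ratios were near 0 at -0.08 (SCC1) and 0.19 (SCC2). It was 3.87 for the joint entry Ccl21a,Gm1987, 4.67 for Gm1987 and 2.13 for Aebp1, a matrix protein of fibroblasts, and -0.89 for Angpt2. In quiescent against double negative cells the same difference was 1.90 for Eng, 3.97 for Rhoj, 2.55 for Aebp1 and 2.19 for Cdc45. Over these entries SCC2 was the higher tumour in all but Angpt2. They are named genes only, and opposite signs are not particular to them. Signs were opposite, or a ratio was 0, for 192 of all 1609 genes in quiescent against proliferative cells. In quiescent against double negative cells this held for 863 of 1609 genes. Quiescent against double negative cells gave fibroblast markers medians of -2.68 in SCC1 and 3.07 in SCC2, and immune markers -1.59 and 2.30. In quiescent against proliferative cells the medians were -0.34 (SCC1) and 2.95 (SCC2) for immune markers and -2.17 and 0.75 for keratinocyte markers. The fibroblast median was also higher in SCC2 there, while the medians over all genes were -0.61 and -0.49. A higher ratio in SCC2 was thus shared by lists of other cell types and is not particular to Cldn5 and Egfl7. The part of these cell types in the differences was not tested.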

How the results depend on the processing

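Of 42 recomputed values, each a result under 1 other setting, 31 kept their direction and, for counts, stayed within 1.5 times. Many of the 31 could not have changed, so the tally is no measure of stability. A count of 0 within 10 kb must stay 0 in a narrower window or under a stricter overlap. A count of 0 at a minimum size of 1 must stay 0 at 2. A mean of 2 ratios with the same sign keeps that sign when either tumour is left out. For a mean over 2 tumours only the sign is informative, since either tumour alone lies within 1 SD of it. With 1 tumour left out, the double negative against proliferative ratio was 4.53 to 6.84 for Cldn5 and 1.63 to 3.34 for Egfl7, and the quiescent against double negative ratio was -7.70 to -1.81 and -4.00 to -0.79. The 6 endothelial genes called higher in double negative against proliferative cells, Cldn5 and Egfl7 among them, became 4 with a minimum size of 2 and 7 with none. With no minimum size, 685 of all 1609 genes were higher there. The share of all genes at a minimum size of 2 was not computed. The mean quiescent against proliferative ratio over the 2 tumours changed sign without SCC2: leaving out 1 tumour gave -0.83 to 2.75 for Cldn5 (mean 0.96) and -0.61 to 0.88 for Egfl7 (mean 0.13). The count of endothelial genes called higher in that comparison was 0, 3 with no minimum size and 0 to 3 with 1 tumour left out. With no minimum size, 576 of all 1609 genes were higher in quiescent than in proliferative cells. The share of all genes with 1 tumour left out was not computed. With 50 kb in place of 10 kb, Cldn5 had 4 peaks and 1 Smad2/3 site, and Egfl7 had 3 and 3. Of the 5 genes most like Cldn5, all 5 were shared under the 4 ratios against proliferative cells and 0 under Pearson's r, and for Egfl7 3 and 1 were. No paired analysis was possible because no result comes from a test: the genes were chosen on these ratios, each already a difference within a tumour. Depth is unknown, so low RNA and a ratio from few reads cannot be told apart, and the third ratio adds no information to the other 2.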

Other observations

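Near Cldn5 on chromosome 16, within 1 Mb, the table also holds Tbx1 and Ranbp1, looked up after the values of the neighbourhood were seen. Tbx1, a T-box transcription factor known from lymphatic and pharyngeal development, lies 186 kb away and had double negative against proliferative log2 ratios of 4.71 (SCC1) and 3.43 (SCC2) in the authors' deposited table. Its quiescent against proliferative ratios were 0.74 and 0.62, and its quiescent against double negative ratios -4.02 and -2.84, in the authors' deposited table. Ranbp1, a regulator of nuclear transport, lies 528 kb away and had -1.03 and -1.49 for double negative against proliferative cells in the authors' deposited table. No gene of the table other than Egfl7 lies within 1 Mb of Egfl7.

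Of the 16 genes called higher in double negative cells than in both other populations, Nts (the peptide neurotensin) and Mir25 (a microRNA precursor) have a listed ratio of exactly 12 in double negative against proliferative cells of both tumours, so no fold is given.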
